A study of Mus musculus with 3 samples.

Results

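Neutrophils were examined in day 5 masses of a mouse model of acquired heterotopic ossification (HO), in which Matrigel, a basement membrane scaffold, is implanted under the abdominal skin with or without recombinant BMP2, a bone-inducing growth factor. Cells were selected on measured values. A cell was called a neutrophil if it passed the quality limits of 200 to 6000 genes and at most 5% mitochondrial UMIs (unique molecular identifiers, the counted transcript molecules), gave below 1% of its UMIs to *Col1a1*, *Col1a2*, *Col3a1*, *Dcn* and *Lum*, had no *C1qa* UMI, held at least 2 UMIs each of *S100a8* and *S100a9*, and held a UMI of *Retnlg*, *Cxcr2* or *Csf3r*. These limits were met by 74 of 21503 passing cells in 3 droplet libraries. All libraries came from female CD-1 mice of 6 to 8 weeks. Matrigel-only mice had Matrigel without BMP2 and no oral agent, Vehicle mice had Matrigel with BMP2 and oral corn oil with DMSO, and Palo mice had Matrigel with BMP2 and oral palovarotene, an agonist of the retinoic acid receptor gamma, at 4 mg/kg. Each group was 1 library of dissociated masses, so no difference between groups had a replicate check, and all intervals given are 95% intervals for counting error only.

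Neutrophils are short-lived white blood cells made in the bone marrow, and they are among the first cells to enter injured tissue. They leave the blood along gradients of attractants such as CXCL1 and CXCL2, which bind the receptor CXCR2, while G-CSF, acting through the receptor encoded by *Csf3r*, controls their production. Their granules are filled in sequence during maturation, azurophil granules first, then specific and gelatinase granules, and mature cells carry proteins from messenger RNAs they no longer make. In tissue they release interleukin 1 beta, chemokines and proteases, and they contain little RNA compared with macrophages.

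Neutrophils were found mainly in the Vehicle library. The selection retained 2 of 8728 passing cells in Matrigel-only, or 0.0229% (exact Clopper-Pearson interval 0.00278 to 0.0828%). In Vehicle it retained 62 of 5478 cells, or 1.13% (0.869 to 1.45%), and in Palo 10 of 7297 cells, or 0.137% (0.0657 to 0.252%). The Vehicle share was above both others and the 3 intervals did not overlap between Vehicle and either of them. The Vehicle share was 8.26 times the Palo share (exact conditional interval 4.20 to 18.1) and 49.4 times the Matrigel-only share (13.1 to 417). The Palo share was 5.98 times that of Matrigel-only, with an interval of 1.27 to 56.1 that came close to 1. A lower share can come from fewer neutrophils or from more cells of other types, and these cannot be told apart in dissociated masses.

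The *S100a8* and *S100a9* condition did most of the selection. Of 1782 Vehicle cells with few matrix UMIs and no *C1qa* UMI, 63 met it and 62 also held a UMI of 1 of the other 3 genes. Of 1804 such Palo cells 11 met it and 10 were retained, and of 1971 such Matrigel-only cells 2 met it and both were retained. Just inside the limit, 9 Vehicle and 3 Palo neutrophils had exactly 2 UMIs of *S100a8* or *S100a9*, and just outside it, 3 Vehicle cells and 1 Palo cell failed with 1 UMI of either gene. Cells that held at least 2 of *Retnlg*, *Cxcr2* and *Csf3r* but did not meet the S100 condition numbered 23 in Vehicle and 3 in Palo, and 20 and 3 of them had an *Il1b* UMI. Of the 23 Vehicle cells, 15 had no UMI of *S100a8* or *S100a9* and 7 held over 2000 UMIs, more than most neutrophils. With the S100 genes set aside and at least 2 of those 3 genes required, an alternative chosen after seeing the data, the counts were 1, 78 and 8 cells in Matrigel-only, Vehicle and Palo, the Vehicle count including these 23 cells.

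Neutrophils held few UMIs. The 2 Matrigel-only cells had 563 and 963 UMIs. The 62 Vehicle cells ranged from 503 to 6096 UMIs with a median of 645, and the 10 Palo cells from 577 to 5244 with a median of 764. Cells of a macrophage gate (at least 1 UMI of *C1qa* and 1 of *Csf1r* or *Adgre1*, a range of expression and not a cluster) had medians of 3889 UMIs in Vehicle, 4011.5 in Palo and 3005 in Matrigel-only, so a typical neutrophil was far shallower. The lowest count of any barcode in the deposited tables was 500, 502 and 503 UMIs, and 16 of the 62 Vehicle neutrophils had under 600, so cells below this limit could not be counted. Among passing cells under 1000 UMIs, neutrophils were 59 of 378 cells in Vehicle, or 15.6% (12.1 to 19.7%), 9 of 146 in Palo, or 6.16% (2.86 to 11.4%), and 2 of 547 in Matrigel-only, or 0.366% (0.0443 to 1.31%). Within this shallow range the order of the libraries was the same, and the Vehicle interval lay above both others.

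**Figure D1:**
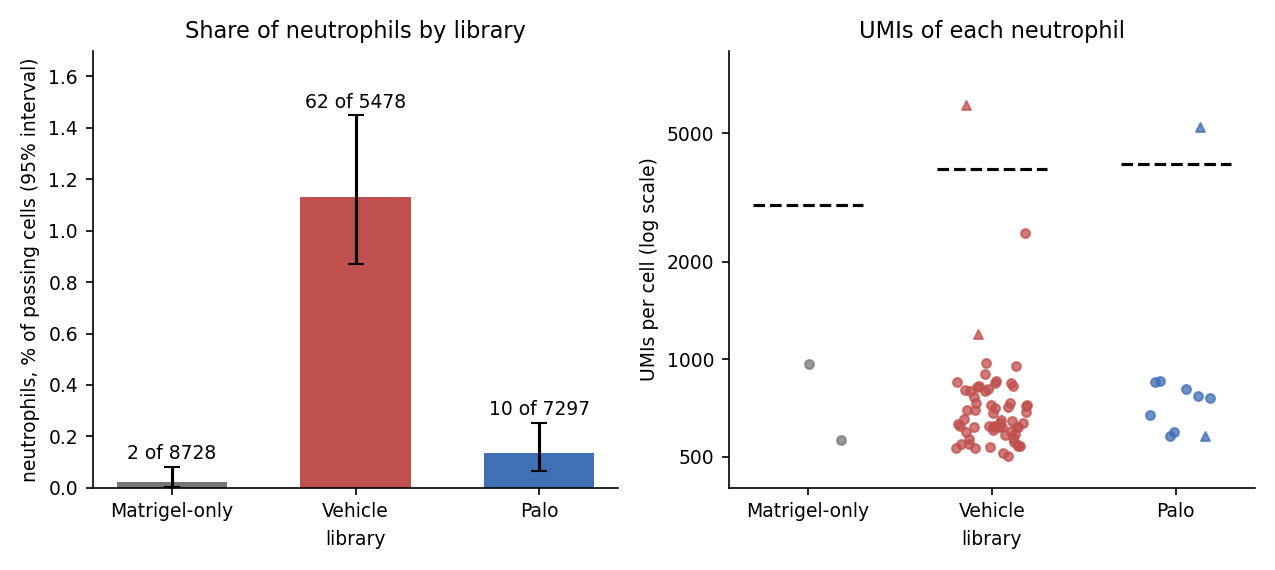
Left, neutrophils as a percent of passing cells in each library, with exact 95% intervals for counting error and the cell counts above the bars. Right, UMIs of each neutrophil on a log scale, with triangles for cells that also held 3 or more UMIs from a macrophage, dendritic, T/NK, B, basophil or eosinophil list and dashed lines at the median of macrophage gate cells, which lies above nearly every neutrophil.

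Markers of other cell types were also present. In Vehicle, 2 neutrophils held at least 3 UMIs from a macrophage, dendritic, T/NK, B, basophil or eosinophil list: the deepest cell, with 6096 UMIs, had 57 of *Mrc1*, a macrophage gene, and another, with 1193 UMIs, had 30 of *Apoe*. In Palo, the deepest cell, with 5244 UMIs, had 107 of *Cd74* and 59 of *H2-Ab1*, genes of MHC class II antigen presentation, and a cell of 580 UMIs had 3 dendritic list UMIs. That deepest Palo cell supplied 44.8% of all 11716 Palo neutrophil UMIs. These 4 cells are called mixed cells here. Over the whole macrophage list, 9 of 10 genes gave 159 UMIs in Vehicle neutrophils, led by *Mrc1*, and 15 of these UMIs remained without the mixed cells. Monocyte, erythroid and stromal lists were not used to call a cell mixed. Of the 60 Vehicle neutrophils not called mixed, 3 held at least 3 UMIs of the monocyte list, 2 of the erythroid list and 7 of the stromal list. Of 8 such Palo cells, 1 held at least 3 UMIs of the stromal list. The stromal and cartilage list, led by *Col1a2*, gave 88 UMIs in 53 of 62 Vehicle cells and 11 UMIs in 7 of 10 Palo cells, and 1 Matrigel-only cell held 13 UMIs of it. The monocyte list, led by *Fn1*, gave 78 UMIs in 23 Vehicle cells and 38 UMIs without the mixed cells, and in Palo it gave 9 UMIs in 4 cells. The T/NK list gave 9 UMIs in 7 Vehicle cells and none in Palo. The part of these transcripts in the other values was not tested. All B and plasmacytoid, basophil and mast, and endothelial list genes were at 0 in neutrophils of both libraries, and of the eosinophil list 1 *Siglecf* UMI was seen in each library. No barcode was shared between neutrophils of different libraries, and 1 Palo neutrophil, the mixed cell of 580 UMIs, used a barcode that also occurred in Vehicle, on a cell without *S100a8* or *S100a9* UMIs.

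The label of neutrophil was checked on 24 neutrophil genes that the selection did not use, with macrophage gate cells as the only comparison. Single genes of this list were compared in Vehicle only. All 24 were detected in Vehicle neutrophils, 19 of them in at least 10% of the 62 cells. *Mxd1*, a MAX-binding repressor of mature granulocytes, gave 111 UMIs in 46 cells, *Mmp9*, the gelatinase of neutrophil granules, 91 UMIs in 44 cells, and *Hdc*, the histamine-forming enzyme, 80 UMIs in 35 cells. To compare cells of unequal depth, each was thinned to 500 UMIs. At that depth *Mxd1* was expected in 65.2% of Vehicle neutrophils and 1.87% of macrophage gate cells, *Mmp9* in 57.9% and 0.347%, and *Hdc* in 46.8% and 0.309% (unthinned 74.2% and 12.0%, 71.0% and 1.97%, and 56.5% and 1.15%). *Trem1*, an amplifier of inflammatory signals, reached 30.6% against 0.487% (unthinned 40.3% and 3.21%). Summed over the 24 genes, Vehicle neutrophils were at 16494 CPM (counts scaled to a common total) and the Vehicle macrophage gate at 1798 CPM. In Palo the values were 14937 CPM, led by *Wfdc17*, and 3392 CPM, a smaller contrast. In a Vehicle basophil gate (at least 2 *Mcpt8* UMIs), 67.1% of cells held *Cxcr2*, but 0% held *S100a8*, *Retnlg* or *Csf3r*. The 24 genes were not compared with that gate. *Ly6g*, the classical surface marker, was sparse, with 5 UMIs in 4 of 62 Vehicle cells, 3 UMIs in 2 of 10 Palo cells and none in Matrigel-only.

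The selecting genes are given as a description only. Of all UMIs of passing Vehicle cells, the 62 neutrophils held 1574 of 1740 for *S100a9* (90.5%), 1366 of 1635 for *S100a8* (83.5%) and 161 of 171 for *Retnlg* (94.2%), but 155 of 427 for *Cxcr2* (36.3%) and 202 of 1220 for *Csf3r* (16.6%). *S100a8* and *S100a9* encode the 2 chains of calprotectin, an abundant calcium-binding protein of the neutrophil cytosol. Together they made up 0.563 to 27.5% of a Vehicle neutrophil's UMIs, with a median of 4.25%. The Palo range was 1.21 to 8.73% with a median of 2.11%, inside the Vehicle range, and the 2 Matrigel-only cells had 9.06% and 13.1%. Both genes lie on chromosome 3 of the mouse build GRCm38, *S100a8* at chr3:90668978-90670035 on the plus strand and *S100a9* at chr3:90692632-90695721 on the minus strand. In macrophage gate cells thinned to 500 UMIs, *S100a8* was expected in 0.605% of Vehicle and 0.124% of Palo cells (unthinned 3.40% and 1.08%).

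By summed UMIs, uncorrected for capture or length, *S100a9* (31737 CPM, counts scaled to a common total), *S100a8* (27543 CPM) and the nuclear RNA *Malat1* (23611 CPM) led in Vehicle neutrophils, followed by the actin-binding *Tmsb4x* and *Actb*. *Il1b* came sixth with 10505 CPM. The 15 genes with the largest ratio to all other passing Vehicle cells were *S100a9*, *S100a8*, *Retnlg*, *Cxcr2*, *Csf3r*, *Il1b*, *Lcn2*, *Gm5483*, *Wfdc21*, *Mmp9*, *Mxd1*, *Stfa2l1*, *Sorl1*, *Pglyrp1* and *Lrg1*. *Gm5483* and *Stfa2l1* belong to the stefin A family, whose copies are so alike that reads could be divided among them, so their values are uncertain. *Il1b* was at 87.0 CPM in the other Vehicle cells, *Mmp9* at 12.3 and *Lrg1*, a leucine-rich glycoprotein of granules, at 13.3.

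Transcripts of late granule genes were present in Vehicle neutrophils and those of early granule genes were almost absent. Of 5 azurophil granule genes, 2 were detected in Vehicle neutrophils, with 2 UMIs of *Elane*, the neutrophil elastase, in 1 cell and 1 UMI of *Prtn3*, proteinase 3, in 1 cell. Of 8 genes of progenitors and the cell cycle, *Hmgb2* was detected in 20 cells, *Cebpe* gave 3 UMIs in 1 cell and *Mki67* 1 UMI in 1 cell. Among late granule genes, the protease genes *Mmp9* and *Mmp8* gave 91 and 13 UMIs in 44 and 8 cells.

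Specific granule genes sat largely in 1 cell. That Vehicle cell, the second deepest with 2465 UMIs, held 133 UMIs of *Camp* (cathelicidin), 84 of *Ngp*, 44 of *Ltf* (lactoferrin), 47 of *Lcn2* (lipocalin 2) and 21 of *Chil3*. It also held 371 UMIs of *S100a8*, 307 of *S100a9* and 10 of the 11 *Cybb* UMIs seen in Vehicle neutrophils, and it had no *Il1b* and no *Retnlg* UMI. *Camp*, *Ngp* and *Chil3* were at 0 in the other 61 Vehicle neutrophils and in all Palo and Matrigel-only neutrophils. *Lcn2* was found in 12 further Vehicle cells, and *Pglyrp1*, a peptidoglycan-binding granule protein, in 25 Vehicle cells with 42 UMIs. The summed specific granule list was 8.13 times higher in Vehicle than in Palo (interval 4.60 to 15.9), and without the mixed cells and this cell the ratio was 0.932 (0.475 to 2.04), a setting chosen after seeing the data.

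*Il1b*, which encodes interleukin 1 beta, a cytokine that raises adhesion and chemokine production in surrounding cells, was the main cytokine transcript. It was found in both Matrigel-only neutrophils, with 3 and 7 UMIs, in 59 of 62 Vehicle neutrophils, with 0 to 24 UMIs and a median of 8, and in 9 of 10 Palo neutrophils, with 0 to 19 UMIs and a median of 6.5. The 3 ranges overlapped. The only Palo cell without an *Il1b* UMI was the deepest, mixed cell. At 500 UMIs a cell, *Il1b* was expected in 93.1% of Vehicle and 89.6% of Palo neutrophils, against 7.94% and 1.60% of macrophage gate cells (unthinned 95.2% and 90% of neutrophils and 24.7% of Vehicle macrophage gate cells). The level was 10505 CPM in Vehicle (exact Poisson interval 9622 to 11447) and 5975 CPM in Palo (4658 to 7549), a ratio of 1.76 (1.37 to 2.29). Without the mixed cells the ratio was 1.08 (0.832 to 1.41), so at this scaling the level difference rested on those cells. Scaled by edgeR's TMM factors in place of total UMIs, with all cells and 10 CPM added, the ratio was 2.71.

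The 62 Vehicle neutrophils, 1.13% of passing cells, held 521 of the 4012 *Il1b* UMIs of that library, or 12.99% (12.0 to 14.1%). In Palo they held 70 of 2046 (3.42%, 2.68 to 4.30%) and in Matrigel-only 10 of 1305 (0.766%, 0.368 to 1.40%). The Vehicle macrophage gate held 46.6% of that library's *Il1b* UMIs with 2087 cells, at 201 CPM.

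Other cytokine transcripts were less frequent. *Il1rn*, the interleukin 1 receptor antagonist, gave 42 UMIs in 22 Vehicle cells, *Csf1*, the macrophage growth factor, 34 in 15, and *Il1f9*, an interleukin 36, 16 in 14. At 500 UMIs these were expected in 28.99%, 20.5% and 15.5% of Vehicle neutrophils and in 3.38%, 0.286% and 0.00224% of macrophage gate cells (unthinned 35.5%, 24.2% and 22.6% against 18.7%, 1.77% and 0.0479%). *Inhba*, which encodes the activin A subunit, gave 5 UMIs in 4 Vehicle neutrophils, or 101 CPM (32.7 to 235), beside 688 CPM in a stromal gate (at least 2% matrix gene UMIs and no *Ptprc*) and 6.76 CPM in the macrophage gate. No *Inhba* UMI was seen in Palo or Matrigel-only neutrophils, and at 11716 and 1526 UMIs a level of up to 256 and 1966 CPM could have been missed. *Il6*, *Il1a* and *Csf3* were at 0 in neutrophils of all 3 libraries, which in Vehicle allows up to 60.5 CPM.

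**Figure D2:**
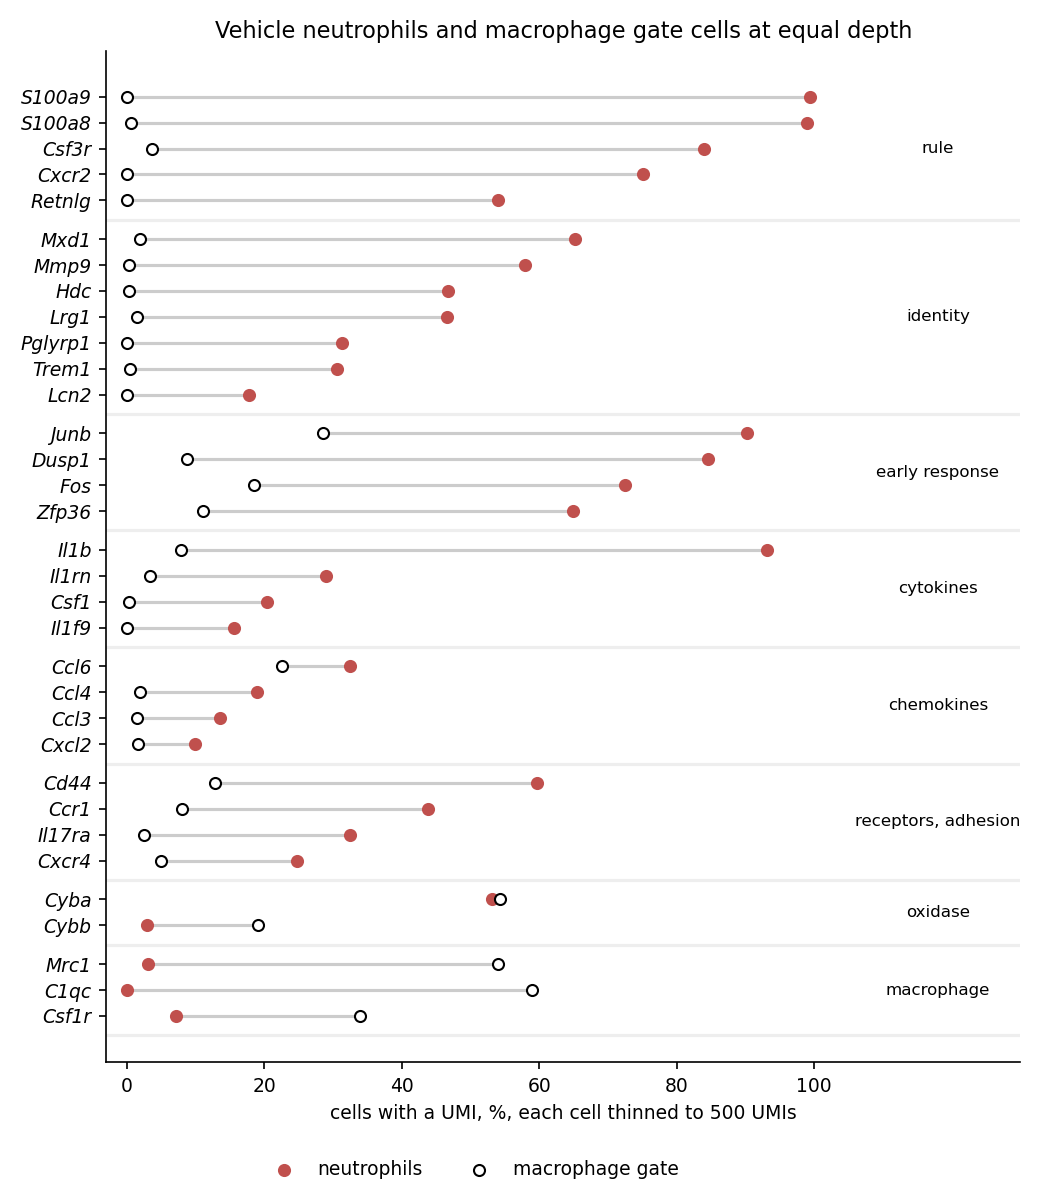
Percent of Vehicle cells expected to hold a UMI when every cell is thinned to 500 UMIs, for 62 neutrophils (filled points) and 2087 macrophage gate cells (open points), by gene group. Identity, early response and *Il1b* points lie further to the right in neutrophils than in the macrophage gate. *Cyba* points nearly coincide, and *Cybb*, *Mrc1*, *C1qc* and *Csf1r* lie to the right in the macrophage gate. That gate required *C1qa* and *Csf1r* or *Adgre1*, and neutrophils had no *C1qa* UMI, so *Csf1r* and *C1qc* are a description only.

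Chemokine transcripts differed from cell to cell. *Ccl4* and *Ccl3*, which encode chemokines that draw monocytes and T cells, gave 93 and 24 UMIs in 13 and 11 Vehicle neutrophils, and 9 cells held both. Of the *Ccl4* UMIs, 54 came from 3 cells, with 27, 15 and 12 each. The cells with 27 and 15 held 2 UMIs of *S100a8* and 2 of *S100a9*, the lowest counts the selection allowed. The cell with 12 held 4 and 9, and a cell with 8 *Ccl4* UMIs held 33 and 33. *Ccl6* gave 44 UMIs in 24 cells, but at 500 UMIs its share of 32.4% was near the 22.5% of macrophage gate cells (unthinned 38.7% and 46.6%). *Cxcl1*, *Cxcl3* and *Cxcl5* were at 0. In the Palo library *Ccl4* gave 2 UMIs in 1 cell, and the Vehicle level was 11.0 times the Palo level (2.96 to 92.0). The ratio was 6.48 without the mixed cells (1.74 to 54.3), and 15.9 with TMM factors and 10 CPM added. The Vehicle level thus rested in part on cells at the edge of the selection.

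*Cxcl2*, a ligand of the neutrophils' own receptor CXCR2, was the chemokine with the clearest difference. No UMI was found in the 2 Matrigel-only neutrophils. In Vehicle 8 of 62 cells held 16 UMIs, with at most 7 in a cell and a median of 0. In Palo 8 of 10 cells held 52 UMIs, with counts of 27, 7, 6, 3, 3, 3, 2, 1, 0 and 0. Both Palo cells without a UMI were the mixed cells. The ranges overlapped, but most Vehicle cells had none and most Palo cells had some. At 500 UMIs *Cxcl2* was expected in 9.96% of Vehicle neutrophils (3.63 to 19.9%) and 76.5% of Palo neutrophils (44.4 to 97.5%), against 1.62% and 8.45% of macrophage gate cells (unthinned 12.9% and 80% of neutrophils and 6.13% of Vehicle macrophage gate cells). The level was 323 CPM in Vehicle (184 to 524) and 4438 CPM in Palo (3315 to 5820). The Palo level was 13.4 times the Vehicle level with 10 CPM added to each, and between 8.72 and 22.8 times under the other scalings and choices of cells tried. This rested on 10 Palo cells of 1 library, and 27 of the 52 UMIs came from 1 cell. That cell held 3 UMIs of *S100a8* and 8 of *S100a9*, near the limit of the selection. The Palo cell with 7 *Cxcl2* UMIs held 7 and 20. Over all passing cells, *Cxcl2* gave 9544 UMIs in Palo and 914 in Vehicle.

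The sequences before the starts of 3 genes that the results turn on are shown, since *S100a9* marks the cells, *Il1b* was their main cytokine transcript and *Cxcl2* differed between libraries. They come from RefSeq for GRCm38.p6, read 5′ to 3′ on the gene's strand, and end at the base before the first transcribed base in RefSeq or GENCODE vM21, whichever lies further upstream. Capitals mark matches, on either strand, to TTGCNNAA (a C/EBP-type motif), GGG, any 3 bases and TTCC (an NF-kB-type motif) or GAGGAA (a PU.1-type motif), and adjacent or overlapping matches form 1 run.
*S100a9*, chr3:90695722-90695971, minus strand: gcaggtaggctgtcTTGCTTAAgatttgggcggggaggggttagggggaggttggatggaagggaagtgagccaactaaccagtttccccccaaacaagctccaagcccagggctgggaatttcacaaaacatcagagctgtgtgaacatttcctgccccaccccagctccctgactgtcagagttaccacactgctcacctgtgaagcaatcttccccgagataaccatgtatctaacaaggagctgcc
*Il1b*, chr2:129371140-129371389, minus strand: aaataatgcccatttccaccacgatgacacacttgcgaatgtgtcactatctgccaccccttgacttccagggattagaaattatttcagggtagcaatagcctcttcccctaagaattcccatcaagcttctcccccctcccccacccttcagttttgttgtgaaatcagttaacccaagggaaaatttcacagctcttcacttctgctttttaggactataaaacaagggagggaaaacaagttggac
*Cxcl2*, chr5:90903649-90903870, plus strand: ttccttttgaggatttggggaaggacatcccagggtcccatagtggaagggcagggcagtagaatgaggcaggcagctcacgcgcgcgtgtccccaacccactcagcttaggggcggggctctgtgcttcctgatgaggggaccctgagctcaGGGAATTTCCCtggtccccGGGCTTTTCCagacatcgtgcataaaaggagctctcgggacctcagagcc
The *S100a9* window held 1 C/EBP-type match, starting 236 bases before the start. The *Cxcl2* window held NF-kB-type matches starting 69, 68 and 50 bases before the start, the first and second of them overlapping on opposite strands. The *Il1b* window held none of the 3 motifs. Among the 250 bases before the start of 32851 promoters, 9.56% held the C/EBP-type, 4.65% the NF-kB-type and 23.3% the PU.1-type motif. A match is a description of letters and no measurement of binding.

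**Figure D3:**
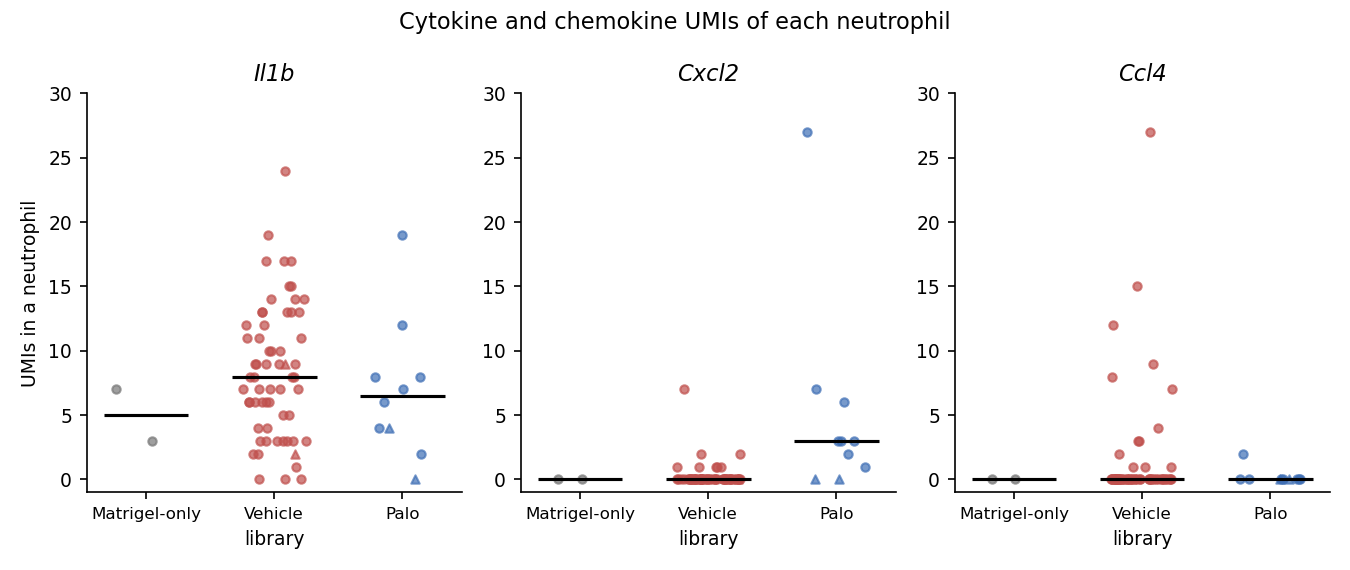
UMIs of *Il1b*, *Cxcl2* and *Ccl4* in each of 2 Matrigel-only, 62 Vehicle and 10 Palo neutrophils, with black lines at the medians and triangles for mixed cells. *Il1b* ranges overlap, *Cxcl2* is at 0 in most Vehicle cells and above 0 in 8 of 10 Palo cells, and *Ccl4* is carried by 13 Vehicle cells and 1 Palo cell.

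Beyond *Cxcl2*, the Vehicle and Palo neutrophils were compared over the 202 genes that reached 1000 CPM in either library. At least a 2-fold difference was seen in 32 genes higher in Vehicle (15.8% of the 202) and 56 higher in Palo (27.7%). All 5 selecting genes were among the 202 and 4 of them were past the fold in Vehicle. With these 5 set aside, as chosen after seeing the data, 28 of 197 genes (14.2%) were higher in Vehicle and 56 (28.4%) in Palo. Scaling by edgeR's TMM factors in place of total UMIs shifts the log2 ratio of Vehicle over Palo by 0.63 for every gene. The counts were then 89 and 27, so the direction of moderate differences depended on the scaling. These factors were fitted to sums that included the mixed cells, and no fit without them was run. Ribosomal protein genes made up 8.74% of Palo neutrophil UMIs with the mixed cells and 2.12% without them, against 3.92% and 3.26% in Vehicle. Of the 32 and 56 genes, 16 and 12 were also past the fold without the mixed cells.

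Among genes higher in Vehicle and found in at least 5 Vehicle neutrophils, the largest ratios were those of *Hbb-bs*, *Fabp5*, *Fn1*, *Ccl4* and *Retnlg*. *Retnlg*, a resistin-like protein of granulocytes that the selection used, gave 161 UMIs in 36 Vehicle cells and 6 UMIs in 4 Palo cells, and its difference is a description only. *Hbb-bs*, a beta globin of red blood cells, gave 282 UMIs in 5 Vehicle cells, 196 of them in 1 cell of 647 UMIs, and none in Palo. The erythroid list gave 531 UMIs in 6 Vehicle cells and 581 CPM in the Vehicle macrophage gate, and its part in other values was not tested. *Fabp5* and *Fn1* were carried mainly by mixed cells. Without these, *Fabp5* was at 94.5 CPM and *Fn1* at 378 CPM in Vehicle.

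Among genes higher in Palo and found in at least 5 Palo neutrophils, the largest ratios were those of *Cd74*, *Cxcl2*, *G0s2*, *Cst3* and *Atox1*. *Cd74* and *Cst3* came mainly from the deepest Palo cell, with 107 of 114 and 71 of 81 UMIs. Without the mixed cells the Palo level of *Cd74* was 2.39 times the Vehicle level (0.778 to 6.29), against 15.6 times with them, and *Cst3* was at 1358 CPM in Palo and 1324 in Vehicle. *G0s2*, an inhibitor of the lipase ATGL found in neutrophils, gave 10 UMIs in 9 of 62 Vehicle cells and 13 UMIs in 6 of 10 Palo cells, and was 5.50 times higher in Palo (2.23 to 14.0), or 8.78 times (3.31 to 23.96) without the mixed cells and 3.47 times with TMM factors and 10 CPM added. *Trem1* was detected in 25 of 62 Vehicle cells and in none of 10 Palo cells. That count of 0 allows up to 30% of such cells to hold a UMI, and at this depth it sets no limit on the share of cells that express the gene.

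Gene lists of neutrophil function were read against those background shares. Of 24 identity genes, 8 reached 1000 CPM, 1 being past the fold in Vehicle (*Lcn2*, with 47 of its 78 UMIs in the *Camp* cell) and 2 in Palo (*G0s2* and *Wfdc17*). Of 18 early response genes 10 reached it, with 0 past the fold in Vehicle and 2 in Palo (*Gadd45b* and *Nfkbia*). Of 13 chemokines 2 reached it, *Ccl4* being higher in Vehicle and *Cxcl2* in Palo. With TMM factors and 10 CPM added, *Gadd45b* was 1.41 times higher in Palo and so not past the fold. None of the genes that reached the minimum in the adhesion, oxidase, pattern recognition, interferon response or glycolysis lists was past the fold. For these lists 2, 3, 1, 1 and 2 genes reached it. Of 11 survival and apoptosis genes 2 reached it, with 0 past the fold in Vehicle and 1 in Palo. Without the mixed cells, 25 of 198 genes (12.6%) were higher in Vehicle and 46 (23.2%) in Palo. In that setting 1 of 11 identity genes was past the fold in Vehicle and 4 in Palo. Of 2 survival and apoptosis genes 0 and 0 were past it. Of 11 early response genes 0 and 3 were past it, the latter near the share of all genes, and of 3 glycolysis genes 0 and 2. Among the last, *Gapdh* was at 1158 CPM in Vehicle and 3225 CPM in Palo.

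Early response genes were among the most frequent transcripts of the neutrophils. All 18 were detected in Vehicle. *Junb*, an AP-1 subunit, gave 244 UMIs in 60 cells, *Dusp1*, a phosphatase that limits MAP kinase signalling, 219 in 56, and *Fos* 138 in 49, and all 10 Palo cells held each of these. At 500 UMIs, *Dusp1* was expected in 84.6% of Vehicle neutrophils and 8.72% of macrophage gate cells and *Junb* in 90.2% and 28.6% (unthinned 90.3% and 41.8%, and 96.8% and 81.9%). The summed list was at 25305 CPM in Vehicle and 27740 in Palo, a ratio of 0.912 (0.807 to 1.03), which became 0.607 without the mixed cells and 1.41 with TMM factors.

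Receptor and adhesion genes were widely detected. Of 9 chemoattractant receptors other than *Cxcr2*, 8 were detected in Vehicle, led by *Ccr1*, the receptor of CCL3 and CCL6, with 58 UMIs in 34 cells. *Cxcr1* was at 0. *Cxcr4*, which retains neutrophils in marrow and rises with ageing, gave 25 UMIs in 19 Vehicle cells and 9 UMIs in 4 Palo cells. *Il17ra* was detected in 27 Vehicle cells and *Cd44*, a hyaluronan receptor, in 44 Vehicle and 8 Palo cells.

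The oxidase genes differed from one another. The NADPH oxidase makes superoxide, with its membrane core encoded by *Cybb* and *Cyba*. *Cyba* was found in 40 Vehicle neutrophils, whereas *Cybb* gave 11 UMIs in 2 cells and was expected in 2.92% of neutrophils at 500 UMIs, against 19.2% of macrophage gate cells (unthinned 3.23% and 65.6%). Glycolytic transcripts of Vehicle neutrophils were sparser than those of the Vehicle macrophage gate. *Gapdh* was expected in 37.6% of Vehicle neutrophils and 62.7% of macrophage gate cells at 500 UMIs (unthinned 45.2% and 95.3%), and the summed Vehicle list was at 7218 CPM against 10415 CPM. In Palo 87 UMIs of 10 neutrophils gave the list 7426 CPM, or 10014 CPM without the mixed cells, beside 6576 CPM in the macrophage gate and 7913 CPM in Ccr2 gate cells. Between the neutrophils of both libraries the ratio was 0.972 (0.767 to 1.24), 0.618 (0.465 to 0.835) without the mixed cells and 1.5 with TMM factors. Retinoid genes, of interest because Palo mice received a retinoid agonist, were few. *Rara* gave 25 UMIs in 20 Vehicle cells and 7 UMIs in 6 Palo cells. *Rarb* and *Rarg*, the latter encoding the receptor that palovarotene activates, were at 0 in neutrophils of both libraries. A level of up to 60.5 CPM in Vehicle and 256 CPM in Palo could have been missed, so absence of these receptors was not shown. Of 20 BMP and TGF-beta response genes 16 were detected in Vehicle with 56 UMIs in all, led by *Smad4* with 9.

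Among Vehicle neutrophils, genes of circulating and of tissue-activated cells were found side by side. A list of 12 circulating-type genes, such as *Mmp9* and *Lcn2*, gave UMIs in 56 of 62 cells, a list of 15 tissue-activated-type genes, such as *Ccl4*, *Tnf* and *Cxcr4*, in 52, and 46 cells held both. Scaled to 500 UMIs, the 2 lists had a Spearman's rho of -0.17 across 62 cells, and the S100 share had a rho of 0.50 with the circulating list and -0.34 with the tissue list. The cells share 1 library, they held from 503 to 6096 UMIs before scaling and so differ in counting noise, and their list counts are small. *S100a8* and *S100a9* were also used in the selection, at no fewer than 2 UMIs each. All 3 values are therefore descriptions only. Without the mixed cells and the *Camp* cell the 3 values were -0.16, 0.45 and -0.36. The circulating list was 3.83 times higher in Vehicle than in Palo (2.75 to 5.49) and 5.91 times with TMM factors, but 1.13 times (0.753 to 1.75) without the mixed cells and the *Camp* cell. The tissue list was 1.68 times higher in Palo (1.31 to 2.14), 2.74 times (2.12 to 3.52) without the mixed cells and 1.09 times with TMM factors. Without *Cxcl2*, a setting chosen after seeing the data, the Palo level was 0.816 times the Vehicle level (0.575 to 1.14), and 1.19 times it (0.804 to 1.701) when the mixed cells were also left out. With TMM factors and all cells, the Palo level without *Cxcl2* was 0.529 times the Vehicle level.

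The attractants of neutrophils were then followed in the other cells of the masses. *Cxcl1* was lower in Vehicle in each of 3 gates. Its stromal gate level was 2.45 CPM in Vehicle, against 19.9 CPM in Matrigel-only and 20.8 CPM in Palo. In the macrophage gate the Vehicle level was 2.04 CPM, against 9.503 and 30.3 CPM. *Cxcl2* was, as in neutrophils, higher in Palo than in Vehicle. Macrophage gate cells had 41.1 CPM in Vehicle, 280 CPM in Palo and 160 CPM in Matrigel-only. The same libraries had 86.0, 408 and 407 CPM in a Ccr2 gate (no *C1qa*, at least 1 *Ccr2* UMI, taken after basophil and T/NK gates). The Palo macrophage gate level was 6.81 times the Vehicle level (6.14 to 7.58). The library with the most neutrophils had the lowest *Cxcl1* and *Cxcl2* levels in these gates, but *Cxcl5*, another CXCR2 ligand, had another order. *Cxcl5* in the stromal gate was at 4.65 CPM in Vehicle, 2.40 CPM in Palo and 6.29 CPM in Matrigel-only, a Vehicle level 1.94 times that of Palo (1.29 to 2.96). *Cxcl3* gave no more than 12 UMIs in any of these gates. *Il1b* ran the other way in the macrophage gate, at 201 CPM in Vehicle, 35.6 CPM in Palo and 32.996 CPM in Matrigel-only. In a Vehicle basophil gate of 76 cells (at least 2 *Mcpt8* UMIs), *Ccl3* and *Ccl4* were at 5163 and 4905 CPM, both above the 484 and 1875 CPM of the neutrophils. *Csf3*, which encodes G-CSF, gave no more than 9 UMIs in any of these gates.

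**Figure D4:**
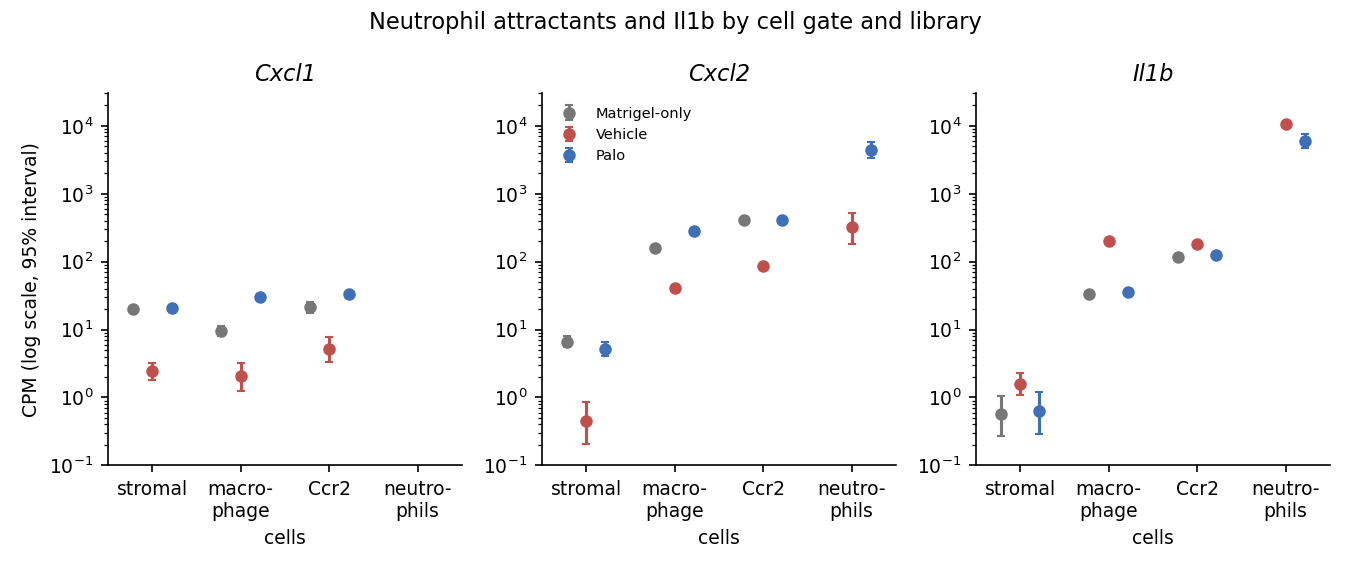
CPM of *Cxcl1*, *Cxcl2* and *Il1b* on a log scale in 3 gates and in neutrophils of each library, with exact Poisson 95% intervals, leaving out the 2 Matrigel-only neutrophils and points with no UMI. Vehicle points are lowest for *Cxcl1* and *Cxcl2* and highest for *Il1b*.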

How the data were processed

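Masses were harvested on day 5 and dissociated, and 1 droplet library was made per group. The authors deposited UMI counts per gene and cell, not normalized, made with Cell Ranger 3.0.2 against mm10, with Seurat 3 named in the submitters' processing notes. The tables held 31053 genes and 44252421, 46317250 and 46901673 UMIs in Matrigel-only, Vehicle and Palo. Members and gene lists were chosen with earlier results of these data known, so no pattern here is independent of that choice. Counts were summed over neutrophils and given as CPM. Intervals were exact Clopper-Pearson, Poisson or conditional binomial at 95%, and a count of 0 was given a limit of 3 counts. PCR and capture errors are not covered. Thinning used the hypergeometric expectation at 500 UMIs, a multiple of 100 under the 10th percentile of the members. No doublet caller was run, and mixed cells were set aside in an alternative. Genes named outside the lists were the 15 highest in Vehicle neutrophils, the 15 largest ratios to other Vehicle cells among genes in at least 20% of neutrophils (10 CPM added), and the 5 largest Vehicle and Palo ratios each way among genes of at least 1000 CPM in at least 5 cells. With 1 library per group no test was run. Scripts were tested on simulated counts. Python 3, numpy, scipy and edgeR 4.0.16 were used. A single list gene, *Clec7a*, had no entry under that symbol.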

Additional observations from a re-analysis of the deposited data

How the results depend on the processing

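Of 239 alternative values over 67 results, 194 stayed within the counting interval of the reported value (or within 1.5 times a count), and 45 moved. Among the log2 ratios of single genes, a sign turned in 1, that of *Junb* in Vehicle over Palo, from -0.26, with a counting interval that held 0, to 0.37 with TMM factors. Ratios of summed gene lists were not among the 67 results, and for 9 of 16 of them the higher library changed under at least 1 scaling or choice of cells, so list ratios give no stable direction there. The Vehicle share was 0.730% and the Palo share 0.0822% with at least 5 UMIs of each S100 gene. *Il1b* in Vehicle neutrophils was at 12290 CPM as a mean over cells, 12055 without mixed cells and 11770 without the deepest cell of each library. Its log2 ratio of Vehicle over Palo was 0.38, 0.11 and 0.12 in the same order and 1.44 with TMM factors. The mean over cells gave 21 genes higher in Vehicle and 37 in Palo, TMM factors gave 89 and 27, a 500 CPM minimum 89 and 108, and a 2000 CPM minimum 12 and 20. The log2 ratio of *Cxcl2* in the macrophage gate was -2.60 as a mean over cells. Both planned thinning percentiles gave 500 UMIs, so that alternative changed nothing, and its values, which could not move, are counted among the 194. No paired analysis was possible because each group was 1 library. Depth limits all of these values: Palo held 10 neutrophils and 11716 neutrophil UMIs, Matrigel-only 2 and 1526, and a gene under 256 CPM in Palo could not be told from 0.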
